A study of Mus musculus with 36 samples.

Results

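The collagen genes are here the genes whose symbol in the deposited table is Col, a number, a lower-case a and a number, such as Col2a1. The array carried 87 probes of 40 collagen genes. A probe was kept where its detection p-value, which sets its brightness against the negative-control beads of the same array, was under 0.01 on at least 1 array, and such a probe on such an array is called detected. This left 48 probes of 32 collagen genes, out of 21712 probes of 15556 genes in all. Several of the 32 genes, Col9a3, Col1a1, Col5a2, Col8a2 and Col12a1 among them, also had probes that were detected on no array and left out.

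RNA of 16 regions of MF1 mouse embryos was amplified and measured on 36 Illumina MouseWG-6 v2.0 arrays, and the labels name no treatment and no transgene. At E7.5 the pieces came from the anterior part (A), the posterior part (P) or the proximal end of the posterior part (PP), and at E8.5 from the rostral part of the node (RN), its border with the streak (NSB), the lateral epiblast at the caudal end (CLE), or the anterior (St1) or posterior (St5) primitive streak. Tail buds aged E9.5, E10.5, E11.5, E12.5 or E13.5 gave the chordoneural hinge (CNH), and the 3 youngest of these ages also gave tissue lying behind the hinge (P-CNH). There were 3 arrays for each of 4 regions (CLE, NSB, E11.5 CNH, E7.5 A) and 2 for each of the other 12, and each array held a pool of between 6 and 74 dissected pieces, so that p-values measure the spread between pooled samples. In bulk samples of this kind, fewer cells of a type and less RNA per cell cannot be told apart.

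The arrays were hybridised in 3 batches of 12. The node, both streak pieces and both E10.5 tissues were run entirely in batch 1, next to 2 of the NSB arrays. The link from batch 1 to batches 2 and 3 is therefore a single array, NSB replicate 3. Detected probes numbered 15481 to 16256 per array in batch 1, 11062 to 15388 in batch 2 and 10814 to 16241 in batch 3. Detected collagen genes numbered 14 to 19, 8 to 18 and 13 to 22 in the same batches. The fewest probes were detected on E13.5 CNH replicate 2 and on E8.5 CLE replicate 1, and the number of arrays limits the precision of every value.

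Collagens are extracellular proteins of 3 chains wound into a triple helix. Fibril-forming collagens build the cables of connective tissue and cartilage, and fibril-associated collagens sit on their surface. Type IV collagen forms the sheet of basement membranes, type VIII forms networks, and transmembrane collagens anchor cells to their surroundings. The notochord, which lies in the node at E8.5 and in the chordoneural hinge of the tail bud, is wrapped in a collagen-rich sheath.

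The 40 genes covered each of these classes. Of 11 fibril-forming genes 8 were kept, of 9 fibril-associated genes 7, of 6 type IV genes 5, and of the genes of types VIII and X 2 of 3. All 3 type VI genes, both multiplexins (Col15a1 and Col18a1), Col7a1 and all 4 transmembrane genes were kept. Not kept were Col1a2, Col3a1 and Col5a3 of the fibrils, Col14a1 and Col19a1 of the fibril-associated class, Col4a3, Col10a1 and Col28a1. Col16a1, Col18a1, Col2a1, Col4a1, Col4a2 and Col5a1 were detected on all 36 arrays. At the other end, Col20a1, Col25a1 and Col4a4 were detected on 1 array each and Col15a1 on 2. A member that passed the filter only through the region where it is high had to differ there, so the number kept supports nothing by itself.

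**Figure D1:**
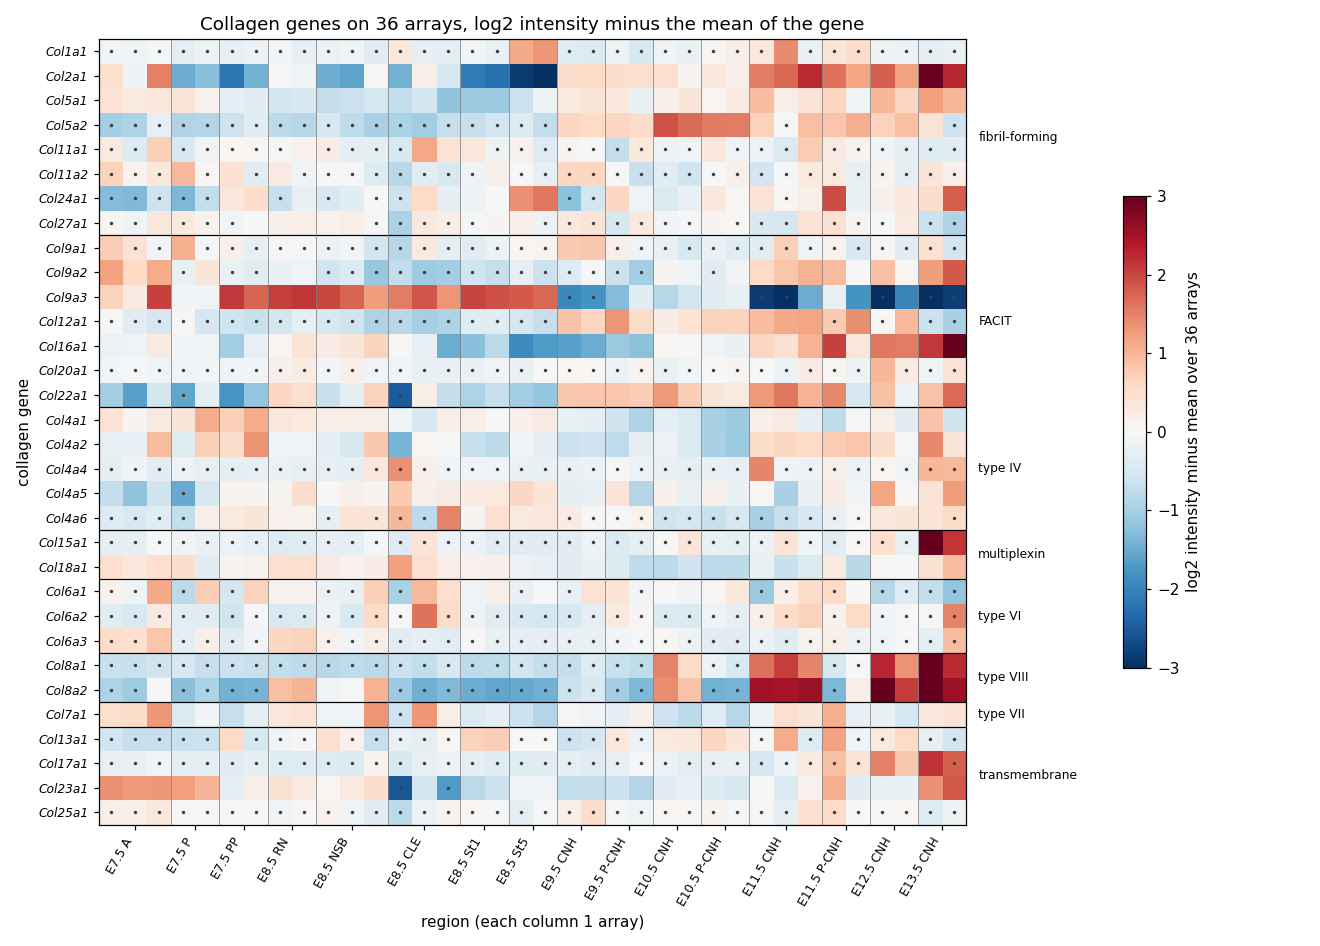
Log2 intensity of the 32 collagen genes on 36 arrays, each gene minus its own mean, with classes divided by lines, regions in order of age and a dot where the probe was not detected. Col9a3 is high up to E8.5 and low in the tail bud, and Col8a1, Col8a2 and Col16a1 are high in the late CNH.

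Called collagen genes numbered from 0 to 12 in 9 comparisons. All 36 arrays entered 1 limma model with terms for region and batch. A call needed an adjusted p no higher than 0.05 together with a change of 1.5-fold or more. Of the 32 genes, 21 were called for a difference among any of the 16 regions, against 38.2% of all genes. In the late CNH (E11.5, E12.5 and E13.5) against E9.5 CNH, 10 were higher, against 7.55% of all genes, and 2 lower, against 6.14%. Of the 10, Col15a1, Col17a1 and Col4a4 were kept only through late CNH arrays, so that these 3 had to be high there. The median log2 difference of the collagen genes there was 0.49, and that of all genes was -0.03. Both E9.5 CNH arrays lay on BeadChip 3 and the late CNH arrays on BeadChips 4 and 5, and no BeadChip held both, while the batch term does not remove a difference between BeadChips 3 and 4. That difference can be estimated through E7.5 A, CLE and E9.5 P-CNH, which lay on more than 1 BeadChip. When the BeadChip replaced batch as a random block, the count of 12 was 4 (Col8a1, Col8a2, Col16a1 and Col17a1). With the BeadChip as a fixed term, an alternative chosen after seeing the data, it was also 4 (Col8a1, Col8a2, Col16a1 and Col9a3), and the differences of Col2a1 and Col24a1 changed sign. In the tail bud (8 regions) against E8.5 (5 regions), 6 were higher, against 7.30% of all genes, and 1 was lower, against 6.25%, with medians of 0.24 and 0.01. Of the 6, Col5a2, Col12a1 and Col8a1 were kept only through tail bud arrays. No p-value is given for a member in a comparison with the group through which alone it was kept. E10.5 CNH against NSB, the hinge against the border of the node a few days earlier, gave 4 higher (3.95% of all genes) and 1 lower (4.15%). RN and NSB against CLE and St1 gave 3 higher (3.20% of all genes) and 0 lower (0.424%), where 10 of the 32 had an unadjusted p under 0.05 in limma in either direction. St5 against the other E8.5 regions gave 2 higher (3.01%) and 2 lower (3.04%).

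Within the youngest embryos and across the tail bud the calls were few. CNH against P-CNH, over the 3 ages that had both, gave 2 higher (0.527% of all genes) and 0 lower (0.0900%), with 6 at an unadjusted p under 0.05 in limma. E7.5 A against P gave 1 higher (1.38%) and 0 lower (1.46%), with 5 at an unadjusted p under 0.05 in limma. E8.5 against E7.5 gave 0 higher (1.89%) and 1 lower (1.39%), with 8 at an unadjusted p under 0.05 in limma. E7.5 PP against P gave 0 higher (0.450%) and 0 lower (0.392%) in limma, with 5 at an unadjusted p under 0.05. For a difference of CNH minus P-CNH between E9.5, E10.5 and E11.5, limma called 0 collagen genes (0.0257% of all genes), and 4 had an unadjusted p under 0.05. With offset 100 in the background correction, PP against P gave 1. The shares of all genes given for these comparisons apply also to the counts of the other gene lists below.

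Several of these counts moved with the setting or with 1 array. The shares of all genes called in these fits are not given, so the counts do not show a change of the collagen genes alone. The late CNH count of 12 was 4 without E9.5 CNH replicate 1 and 6 without replicate 2, and 4 when E11.5 and E12.5 CNH alone were set against E9.5 CNH, an alternative chosen after seeing the data. The count of 5 in E10.5 CNH against NSB was 3 without E10.5 CNH replicate 1 or NSB replicate 2. The St5 count of 4 was 1 without either St5 array. The RN and NSB count of 3 was 6 without CLE replicate 2 and 5 without either E13.5 CNH array. The count of 2 in CNH against P-CNH was 1 without E9.5 P-CNH replicate 1. It was 4 when E11.5 P-CNH replicate 2 was left out, without which the difference between stages also had 1. The count of 1 in E7.5 A against P was 0 without P replicate 1 and 2 without A replicate 2 or either E13.5 CNH array. The count of 1 in E8.5 against E7.5 was 4 with the BeadChip as a fixed term. It was 0 without NSB replicate 1 or 2, St5 replicate 2, E7.5 P replicate 2 or PP replicate 1, and 2 without either E11.5 P-CNH array.

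Within batches, fitted alone, the counts also moved, beside shares of all genes that moved with them, and the batches held only some of the regions. In batch 1 the tail bud was E10.5 alone and no CLE array was present. In batch 2 E8.5 was a single array, CLE replicate 1, with 11062 detected probes, and P-CNH was a single E9.5 array set against E9.5 and E11.5 CNH. The late CNH there lay on BeadChip 4 and E9.5 CNH on BeadChip 3. In batch 3 NSB was a single array, and CNH was a single E11.5 array set against E9.5 and E11.5 P-CNH. Comparisons with such an arm of 1 array do not repeat the pooled ones, and those of CNH with P-CNH in batches 2 and 3 mix age with region. Batch 1 gave 10 in E10.5 CNH against NSB (19.7% of all genes), 10 in the tail bud against E8.5 (18.4%), 6 in RN and NSB (6.16%), 7 in St5 (13.4%) and 4 in CNH against P-CNH (2.78%). Batch 2 gave 12 in the late CNH (16.3%), 16 in the tail bud (28.4%), 8 in E8.5 against E7.5 (19.7%), 1 in E7.5 A against P (1.90%) and 1 in CNH against P-CNH (0.379%). In batch 3, with 3 residual degrees of freedom, limma gave 2 in the tail bud (1.94%) and 0 in each of E8.5 against E7.5 (0.251%), RN and NSB (0.00643%) and CNH against P-CNH. E7.5 PP and P shared no batch.

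**Figure D2:**
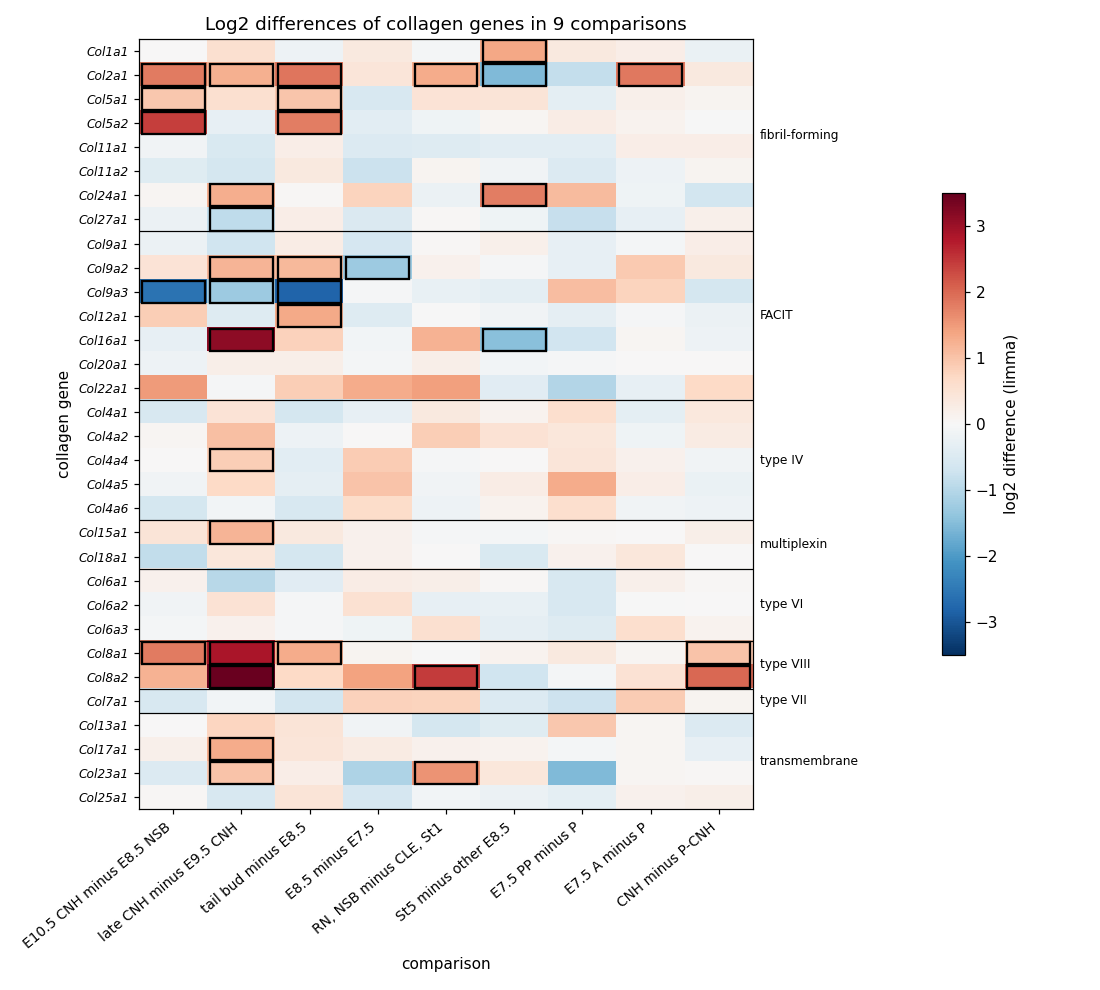
Log2 differences of the 32 collagen genes in 9 comparisons from limma, with a black frame where the gene was called. Col2a1 is framed in 6 comparisons, while genes of type VI are framed in none.

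Of the fibril-forming genes, Col2a1, the chain of cartilage and notochord sheath collagen, was low in the posterior streak and highest in the oldest hinge. Its log2 intensity was 9.05, 8.41 and 10.09 in E7.5 A, 7.07 and 7.32 in P, and 6.40 and 7.16 in PP. At E8.5 it was 8.56 and 8.45 in RN, 7.11, 6.99 and 8.61 in NSB, 7.16, 8.76 and 8.04 in CLE, 6.44 and 6.32 in St1, and 5.69 and 5.49 in St5. In the 17 tail bud arrays it ran from 8.65 through a median of 9.75 to 11.53, the last in E13.5 CNH replicate 1. The 2 St5 arrays thus lay below every other array, and the tail bud overlapped E8.5 only through CLE replicate 2.

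Log2 differences come from the limma model and are adjusted for batch, so they can depart from the difference between means. Col2a1 was higher in E7.5 A than in P by 1.85 (SE 0.383, adjusted p 0.00617), with no overlap, and without P replicate 1 the value was 1.72 (adjusted p 0.0928). It was higher in RN and NSB than in CLE and St1 by 1.31 (adjusted p 0.0173) with overlapping arrays, which was no longer called without RN replicate 1 (1.28, adjusted p 0.0668) or St1 replicate 2 (1.27, adjusted p 0.0669), nor with offset 100, no batch term or the replicate block. The St5 difference was -1.54 (SE 0.362, adjusted p 0.00896), and -1.64 and -1.43 without each St5 array in turn (adjusted p 0.0706 and 0.164), and it was also not called with no background correction, offset 100 or the mean of the kept probes. Of these 3 calls, that of E7.5 A against P was the one that held under each alternative.

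With age, Col2a1 rose in the tail bud against E8.5 by 1.86 (SE 0.299, adjusted p 9.98e-05), and by 1.97 within batch 1, where the tail bud was E10.5, and the value was 1.58 within batch 3 (adjusted p 0.0950). It was 1.81 higher in E10.5 CNH than in NSB (SE 0.412, adjusted p 0.00542), a call lost without E10.5 CNH replicate 1 (1.61, adjusted p 0.0945) or NSB replicate 2 (1.75, adjusted p 0.0611), or with no batch term. The late CNH exceeded E9.5 CNH by 1.24 (SE 0.346, adjusted p 0.0198) with no overlap. This call was lost without either E9.5 CNH array (1.22 and 1.27), E12.5 CNH replicate 1 (0.97) or E13.5 CNH replicate 1 (0.94), and with the BeadChip block, the mean of the kept probes or E11.5 and E12.5 alone. With the BeadChip as a fixed term the late CNH difference of Col2a1 was -0.04 (adjusted p 0.979), so its rise within the hinge is not secured. Both other kept probes of Col2a1 went the same way in each comparison but were called only in the tail bud against E8.5 (1.52 and 1.38).

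Type V collagen, which sets the width of fibrils, was measured through Col5a1 and Col5a2, and Col5a2 marked the tail bud. Col5a2 was detected on none of the 19 arrays of E7.5 and E8.5, where the 12 of E8.5 ran from 4.66 to 5.29. It was 6.36 and 6.30 in E9.5 CNH, 6.35 and 6.25 in E9.5 P-CNH, 7.61 and 7.39 in E10.5 CNH, with 7.28 and 7.25 in E10.5 P-CNH. Later values were 6.41, 5.64 and 6.62 in E11.5 CNH, 6.54 and 6.80 in E11.5 P-CNH, 6.39 and 6.62 in E12.5 CNH, and 6.10 and 5.08 in E13.5 CNH, with 2 of these arrays not detected. Thus the E10.5 arrays were the highest, and 1 E13.5 CNH array fell among those of E8.5.

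Where a group had no detected array, the fold is given as a lower bound, against the mean over its arrays of the higher of the lowest detected value of the array and the gene's own value. Bounds use values not adjusted for batch, and none is given where this mean was not exceeded. Col5a2 was higher in the tail bud by 1.79 (SE 0.220, at least 1.74-fold), and by 2.33 within batch 1, with 1.46 within batch 3 (not called). E10.5 CNH exceeded NSB by 2.41 (SE 0.303, adjusted p 5.85e-06, at least 3.45-fold), called under each alternative and with each array left out. The second Col5a2 probe was detected only on the 4 E10.5 tail bud arrays, those of E10.5 CNH among them. It was called in E10.5 CNH against NSB (1.76, at least 1.83-fold), which is not independent of how it was kept. Its tail bud call (0.90) had to follow from how it was kept.

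Col5a1, detected throughout, ran from 7.78 to 8.84 at E8.5 with a median of 8.34, and from 8.79 to 10.22 in the tail bud with a median of 9.34. It was 9.42, 9.27 and 9.30 in E7.5 A, 9.37 and 9.11 in P, and 8.68 and 8.67 in PP. E8.5 overlapped the tail bud in St5 replicate 2 and E7.5 in PP, and Col5a1 was not called between E8.5 and E7.5. The rise from E8.5 to the tail bud was 0.98 (SE 0.187, adjusted p 0.000639), with 0.88 within batch 1 and 1.13 within batch 3 (not called). E10.5 CNH, at 9.14 and 9.34, exceeded NSB, at 8.26, 8.33 and 8.45, by 0.95 (adjusted p 0.0218). The call was lost without NSB replicate 1 (0.91) or 2 (0.98) or without E10.5 CNH replicate 1 (1.05) or 2 (0.85). Over the 16 fitted region values, which share arrays and the batch term, Col5a1 and Col5a2 had a Pearson r of 0.67 (Spearman rho 0.77).

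Col1a1, a chain of the type I collagen of skin and bone, was detected on 3 arrays. It was 6.07 and 6.26 in St5 and 6.36 on E11.5 CNH replicate 2, while the 10 remaining E8.5 arrays ran from 4.63 to 5.26 with a median of 4.75. The other E11.5 CNH arrays had 5.29 and 4.73, so that the region was not uniform. St5 exceeded the rest of E8.5 by 1.34 (SE 0.244, adjusted p 0.000735, at least 1.31-fold). Only the offset of 100 ended this call among the alternatives. The other Col1a1 probe was detected on no array.

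Col24a1, a minor fibril-forming chain of developing bone and cornea, was also high in St5, at 7.40 and 7.60, against 5.34 to 6.63 (median 5.76) in the other E8.5 regions. The St5 difference was 1.80 (SE 0.429, adjusted p 0.00957), and without St5 replicate 1 or 2 it was 1.90 or 1.71 (adjusted p 0.0803 and 0.160). The second Col24a1 probe was called there too (1.54). In the late CNH Col24a1 ran from 6.08 to 7.85, against 4.78 and 5.48 in E9.5 CNH, a difference of 1.28 (adjusted p 0.0422, at least 1.46-fold). That call did not hold in 22 of 36 fits with 1 array left out, which gave 0.93 to 1.63, nor in 8 of 15 alternatives, and with the BeadChip as a fixed term the value for Col24a1 was -0.21 (adjusted p 0.864). The second probe was called there too (0.87, adjusted p 0.00320), with overlapping arrays. The second probe was lower in CNH than in P-CNH by -0.71 (adjusted p 0.00704), where the first was not called. This probe was detected on 0 of the 7 CNH arrays there and 4 of the 6 P-CNH arrays, with a bound of only 1-fold.

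The remaining fibril genes lay close to the detection limit. Col11a1, a chain of cartilage fibrils, ran from 4.59 to 6.45 with a median of 5.23 over all arrays and was detected on 7, with no call in any comparison (adjusted p 0.580 for any region). Col11a2, its partner, ran from 4.50 to 6.32 and was detected on 4. Col27a1, a cartilage collagen, was lower in the late CNH (4.52 to 5.85) than in E9.5 CNH (5.73 and 5.82) by -0.88 (adjusted p 0.00698). It was detected on none of the E9.5 CNH arrays and on 2 late CNH arrays (5.85 and 5.70), in the group called lower. The lowest detected values of those 2 arrays were 5.66 and 5.46, against 5.98 on both E9.5 CNH arrays. The second probe gave -0.16, and without E9.5 CNH replicate 1 or 2 the value was -0.92 or -0.83 and not called. Of 15 alternatives, 9 also ended the call, the BeadChip block, cyclic loess and no batch term among them.

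Among fibril-associated collagens, Col9a3, a chain of type IX collagen on cartilage fibrils, was high at E7.5 and E8.5 and low in the tail bud. It was 8.41, 7.97 and 9.78 in E7.5 A, 7.64 and 7.60 in P, and 9.85 and 9.47 in PP. The 12 arrays of E8.5 ran from 8.98 to 9.87 with a median of 9.60. The 17 of the tail bud ran from 4.50 to 7.52 with a median of 5.95, and 10 were detected. No tail bud array reached the lowest of E8.5. These values rest on 1 of 2 probes, since the other Col9a3 probe was detected on no array (mean 4.52).

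In the tail bud, Col9a3 was 5.79 and 5.95 in E9.5 CNH, 6.42 and 7.42 in E9.5 P-CNH, 6.87 and 7.15 in E10.5 CNH, with 7.42 and 7.52 in E10.5 P-CNH. It was 4.87, 4.56 and 6.25 in E11.5 CNH, 7.49 and 5.94 in E11.5 P-CNH, 4.58 and 5.75 in E12.5 CNH, and 4.50 and 4.90 in E13.5 CNH. It was thus lowest in the late CNH and was not detected in E9.5 or E13.5 CNH. The tail bud difference of Col9a3 was -2.80 (SE 0.279, adjusted p 1.57e-07), and -2.42 within batch 1 and -2.95 within batch 3, both called. E10.5 CNH lay below NSB by -2.59 (SE 0.384, adjusted p 5.25e-05). Both calls held under every alternative fitted to all batches and with each array left out that could be (35 and 36 of 36). The late CNH difference from E9.5 CNH was -1.27 (adjusted p 0.0108), and was not called without E9.5 CNH replicate 1 (-1.35) or 2 (-1.20), nor with offset 100, cyclic loess, no batch term, the BeadChip block or E11.5 and E12.5 alone. E9.5 CNH had no detected array, and the 2 detected arrays, E11.5 CNH replicate 3 (6.25) and E12.5 CNH replicate 2 (5.75), were in the group called lower. The lowest detected values of these 2 arrays were 5.66 and 5.46, against 5.98 on both E9.5 CNH arrays. With the BeadChip as a fixed term the Col9a3 value was -2.69 (adjusted p 0.00538).

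Col9a2, which joins Col9a3 in the type IX molecule, had the opposite course in the tail bud. It was 6.93, 6.32 and 6.83 in E7.5 A, 5.50 and 6.08 in P, and 5.52 and 5.37 in PP, and at E8.5 it ran from 4.59 to 5.58. E9.5 CNH had 5.34 and 5.66 and the late CNH 5.77 to 7.56, with no overlap. It fell from E7.5 to E8.5 by 1.28 (adjusted p 0.0330), a call lost without NSB replicate 1 (-1.33) or 2 (-1.23), St5 replicate 2 (-1.24), E7.5 P replicate 2 (-1.18), A replicate 3 (-1.21) or PP replicate 1 (-1.26), and with offset 100, cyclic loess or the ComBat-type adjustment. The rise to the tail bud was 1.13 (adjusted p 0.00118), lost with offset 100 or cyclic loess, and the value was 0.32 within batch 1 and 1.57 within batch 3, neither called. The late CNH difference was 1.19 (adjusted p 0.00391, at least 1.59-fold), lost without E9.5 CNH replicate 1 (1.03) and with offset 100, the BeadChip block or fixed term, or E11.5 and E12.5 alone. Over 16 region values that share arrays and the batch term, Col9a2 and Col9a3 had a Pearson r of -0.54, and Col2a1, whose fibrils they coat, had 0.52 with Col9a2 and -0.80 with Col9a3.

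Col9a1, the third chain, was measured by probes that differed. The brighter probe was 6.13 and 6.17 in E9.5 CNH, was detected there and on 2 other arrays, and was called in no comparison (adjusted p 0.806 for any region). The second, detected on 11 arrays, was 8.36 and 8.27 in St5, 7.16 and 7.39 in RN, 5.88, 6.35 and 4.71 in NSB, 4.89 and 4.87 in St1, and 4.49, 4.55 and 4.61 in CLE. By this probe St5 stood out by 2.21 (SE 0.229, adjusted p 5.02e-07), where the first had 0.17. It gave 1.19 in RN and NSB (adjusted p 0.000367, at least 1.27-fold) and 1.23 in E7.5 PP against P (adjusted p 0.0493, at least 1.31-fold), against 0.03 and -0.30 for the first.

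Col12a1, which bridges fibrils to the matrix around them, was another tail bud gene. Its 12 arrays at E8.5 ran from 4.43 to 5.12 and none was detected. E9.5 CNH had 6.28 and 6.07, E9.5 P-CNH 6.74 and 5.98, E10.5 CNH 5.64 with 5.84, E10.5 P-CNH 6.10 and 6.11, E11.5 CNH 6.35, 6.55 and 6.61, E11.5 P-CNH 6.21 and 6.81, E12.5 CNH 5.47 and 6.40, and E13.5 CNH 4.78 and 4.44. The arrays of every tail bud age but E13.5 thus lay above those of E8.5, though single ages were not tested. The gene was not detected in E13.5 CNH, where it overlapped E8.5, nor on E12.5 CNH replicate 1 or E11.5 P-CNH replicate 1. The tail bud difference was 1.33 (SE 0.204, at least 1.22-fold), and 0.99 within batch 1, with 1.51 within batch 3 (not called). The offset of 100 also ended the call.

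Col16a1, a collagen of fibrils near basement membranes, rose steadily in the hinge. It was 6.04 and 6.20 in E9.5 CNH, 7.73 and 7.68 in E10.5 CNH, 8.32, 8.13 and 8.73 in E11.5 CNH, 9.26 and 9.21 in E12.5 CNH, and 9.81 and 10.75 in E13.5 CNH. The arrays of each age lay above those of the age before. Late CNH exceeded E9.5 CNH by 3.14 (SE 0.374, adjusted p 4.66e-06), under every alternative and with each array left out, though the value was 1.70 (adjusted p 0.0418) with the BeadChip as a fixed term. In the P-CNH it was 6.57 and 6.45 at E9.5, 7.58 and 7.47 at E10.5, and 9.72 and 8.01 at E11.5.

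At E8.5 Col16a1 was lowest in St5, with 7.73 and 8.08 in RN, 7.92, 8.05 and 8.34 in NSB, 7.71, 7.43 and 6.20 in CLE, 6.42 and 6.86 in St1, and 5.77 and 5.97 in St5. St5 lay below the other regions by -1.46 (SE 0.392, adjusted p 0.0249), and by -1.37 and -1.56 without each St5 array and -1.49 and -1.43 without NSB replicate 1 or 2, none of which was called. No background correction, offset 100 and no filter also ended the call. Col22a1, found at tissue junctions, ran from 5.01 to 9.20 and was called for any region (adjusted p 0.000710) but in none of the 9 comparisons. Col20a1 was detected on E12.5 CNH replicate 1 only.

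**Figure D3:**
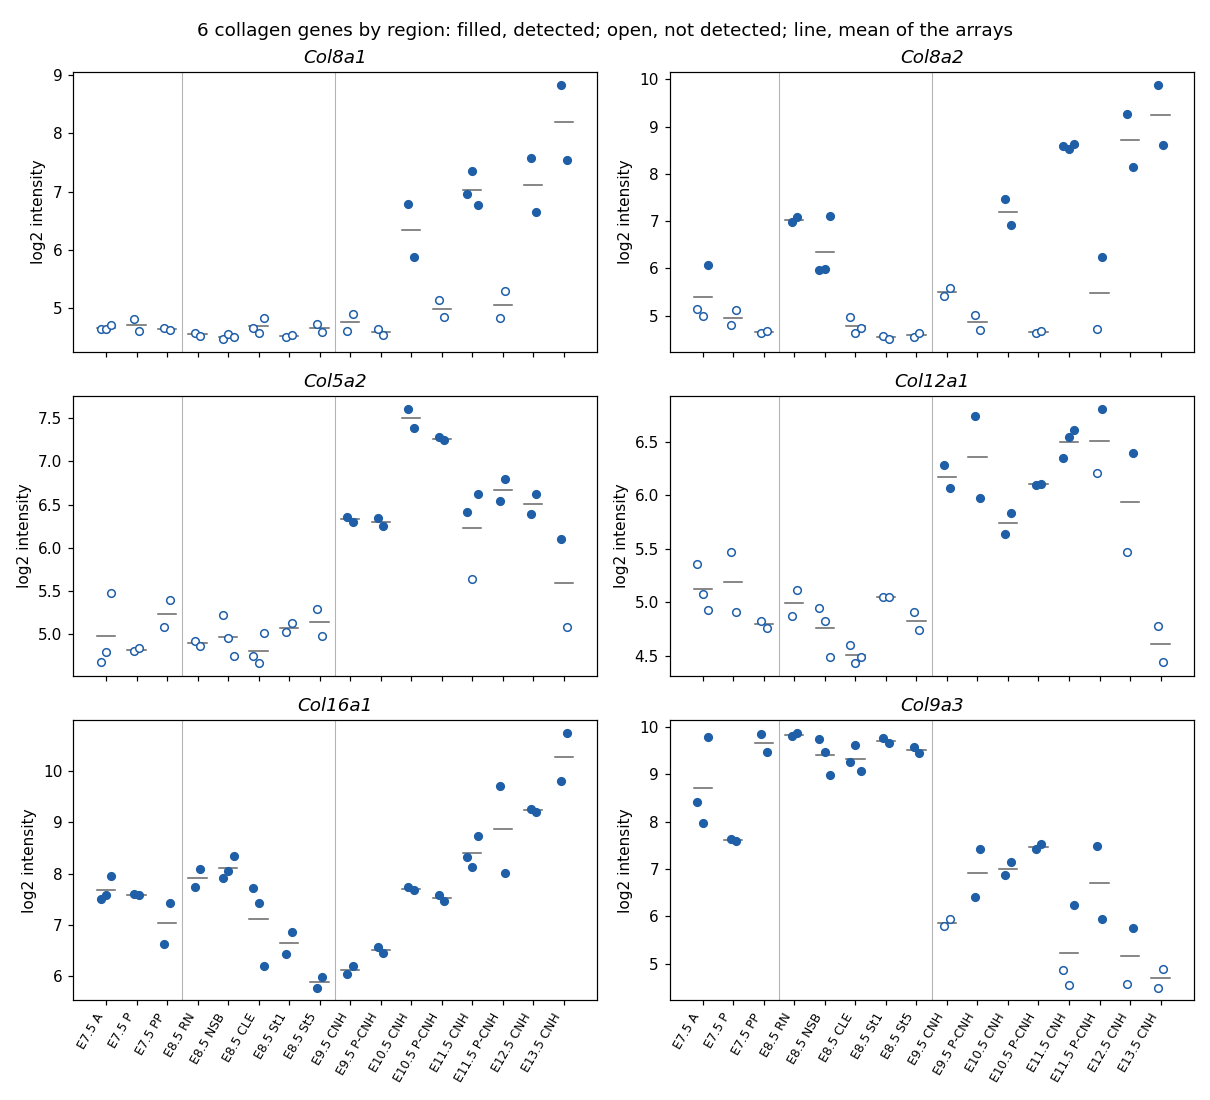
Log2 intensity of Col8a1, Col8a2, Col5a2, Col12a1, Col16a1 and Col9a3 on each array by region, filled where detected, with the mean of each region as a line. Col8a1 and Col8a2 are high in the CNH from E10.5 on, and the 12 arrays of Col9a3 at E8.5 sit above all 17 of the tail bud.

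Type VIII collagen, a network collagen made of the chains of Col8a1 and Col8a2, was high in the hinge from E10.5 on, and Col8a2 alone was also detected in the node. The promoters are shown because both genes were called in the late CNH and in CNH against P-CNH. The bases before the start of each gene, from RefSeq on build GRCm38.p6, are printed 5′ to 3′ on the strand of the gene, 250 for each. Capitals mark the matches to a forkhead motif and to the GC box.
Col8a1: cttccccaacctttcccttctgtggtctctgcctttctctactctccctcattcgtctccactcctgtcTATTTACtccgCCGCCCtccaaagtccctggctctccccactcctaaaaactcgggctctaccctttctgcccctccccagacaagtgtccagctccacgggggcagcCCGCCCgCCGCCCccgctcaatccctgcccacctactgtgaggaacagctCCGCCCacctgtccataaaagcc
Col8a2: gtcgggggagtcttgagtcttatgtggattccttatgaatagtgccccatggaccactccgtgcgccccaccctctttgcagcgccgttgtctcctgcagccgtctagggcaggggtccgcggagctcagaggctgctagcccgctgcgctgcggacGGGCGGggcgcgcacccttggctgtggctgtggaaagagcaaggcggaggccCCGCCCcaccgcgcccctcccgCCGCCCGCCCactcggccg

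The Col8a1 window is chr16:57754738-57754987 on the minus strand, and the Col8a2 window is chr4:126286544-126286793 on the plus strand, both upstream of the gene. On either strand, TGTTTAC was searched for forkhead factors, as were its variants TATTTAC (second base A) as well as TGTTTGC (sixth base G), GGGCGG for the GC box, ACAATGG as well as the shifted AACAATG for SOX factors, TCACACCT for T-box factors, TGGGTGGTC for GLI factors, TATAAA for the TATA box and CCAAT for the CCAAT box. The Col8a1 window held TATTTAC, 181 to 175 bases before the start, and 4 GC boxes. The Col8a2 window held 4 GC boxes, 2 of which overlap, and none of the forkhead, SOX, T-box or GLI letters. In 32851 promoters of the table, 9.73% held a forkhead motif, 32.7% a GC box, 5.35% a SOX, 1.12% a T-box, 0.225% a GLI, 12.4% a TATA and 33.8% a CCAAT motif. Of the 32 collagen genes, out of 40, that matched the table, 2 held the forkhead motif, 18 the GC box, 5 the TATA box and 11 the CCAAT box, and 0 the other 3. A match describes letters and is not a binding site.

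Col8a2 was detected on every array of the node (RN and NSB) and, from E10.5 on, of the hinge, and besides on E7.5 A replicate 3 and E11.5 P-CNH replicate 2. At E7.5 it was 5.14, 4.98 and 6.07 in A, 4.80 and 5.11 in P, and 4.63 and 4.67 in PP. It was 6.97 and 7.08 in RN and 5.96, 5.99 and 7.10 in NSB, while CLE, St1 and St5 ran from 4.50 to 4.96 and none was detected. It was 5.41 and 5.59 in E9.5 CNH, not detected, then 7.46 and 6.92 in E10.5 CNH, 8.58, 8.52 and 8.64 in E11.5 CNH, 9.27 and 8.15 in E12.5 CNH and 9.89 and 8.62 in E13.5 CNH. In the P-CNH it was 5.01 and 4.70 at E9.5, 4.64 and 4.67 at E10.5 and 4.71 and 6.24 at E11.5. The groups did not overlap at E10.5 or E11.5, and the later hinges were the highest.

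For Col8a2, RN and NSB exceeded CLE and St1 by 2.45 (SE 0.320, adjusted p 1.34e-05, at least 1.58-fold), and by 1.96 within batch 1, where CLE was absent. CNH exceeded P-CNH by 2.01 (SE 0.249, adjusted p 4.16e-05), and by 2.53 at E10.5 within batch 1. At E9.5 neither region had a detected array. The lowest detected value was 5.98 on both E9.5 CNH arrays, against 5.54 and 5.49 on NSB replicates 1 and 2. The late CNH exceeded E9.5 CNH by 3.45 (SE 0.350, adjusted p 6.51e-07, at least 7.13-fold). These calls held under every alternative fitted to all batches and with each array left out, except that NSB replicate 3 could not be left out for RN and NSB. The second probe of Col8a2 was detected on 4 arrays, all of the late CNH, so its call there (0.95) had to follow from how it was kept, and it was not called in the others (0.35 and 0.23). The change of the CNH difference with stage had an unadjusted p of 0.000747 and an adjusted p of 0.524 in limma.

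Col8a1 was detected on 9 arrays, all of the CNH from E10.5 on. It was 6.78 and 5.88 in E10.5 CNH, 6.95, 7.36 and 6.77 in E11.5 CNH, 7.58 and 6.64 in E12.5 CNH and 8.84 and 7.54 in E13.5 CNH. Every other array was at or below 5.29, so the node at E8.5, where Col8a2 was detected, lacked a detected Col8a1. E10.5 CNH exceeded NSB by 1.83 (SE 0.302, adjusted p 0.000193, at least 1.53-fold) and the late CNH exceeded E9.5 CNH by 2.87 (SE 0.253, adjusted p 7.78e-08, at least 2.65-fold). CNH exceeded P-CNH by 1.01 (SE 0.181, adjusted p 0.00416, at least 1.35-fold), a call lost without E9.5 P-CNH replicate 1 (0.93, adjusted p 0.0574), with no background correction, the offset of 100, cyclic loess or the replicate block. The tail bud difference was 1.30, and its call was lost with the offset of 100. No E8.5 array was detected, so this value is not an exact fold. Col8a1 was kept only through hinge arrays, which lay on the higher side of these comparisons or outside them. Its calls are thus not independent of how it was kept. The second probe, detected on 8 arrays of the CNH from E10.5 on, was called in the same comparisons, and its tail bud call had to follow from how it was kept.

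Of the regulators of notochord and cartilage, some but not all were called in the comparisons where Col8a2 was called. Col8a1 was not detected on any array of RN, NSB, CLE or St1, so its difference there (-0.02) cannot show whether it moved. Of 7 tested, 6 were higher in RN and NSB, led by Shh, a signal of the notochord (5.23, SE 0.393, adjusted p 1.92e-09), Chrd, a BMP inhibitor (3.34), Noto (3.06) and Sox9 (3.02). In CNH against P-CNH 4 were higher, Shh (4.87), Noto (2.99), Foxa2 (2.16, at least 2.42-fold) and Sox9 (1.56). In the late CNH 2 were higher, Sox5, a factor of cartilage and notochord (2.27, adjusted p 3.27e-08), and Sox9 (0.87). Sox5 was also the 1 called in E10.5 CNH against NSB (2.26) and in the tail bud against E8.5 (2.64). Over 16 region values that share arrays and the batch term, the Pearson r of Col8a2 was 0.80 with Chrd, 0.78 with Shh, 0.75 with Sox5, 0.67 with Noto, 0.61 with Sox9, 0.47 with Foxa2 and 0.28 with T. That of Col8a1 was 0.85 with Sox5 and between 0.03 (Foxa2) and 0.46 (Chrd) with the others. Its Spearman rho was 0.69 with Sox5 and between -0.11 (Foxa2) and 0.48 (T) with the others, and 12 of the 16 regions had no detected Col8a1. The Pearson r of Col2a1 was 0.89 with Sox5 and between 0.06 (Foxa2) and 0.61 (Chrd) with the others. The summed log2 level of the list was 13.52 to 13.79 in RN and NSB together, 11.22 to 12.75 in CLE and St1, and 12.83 to 14.65 in the late CNH, with T the most abundant. Foxa2, Noto, Shh and Sox5 were not detected in CLE. Their part in the result was not tested.

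**Figure D4:**
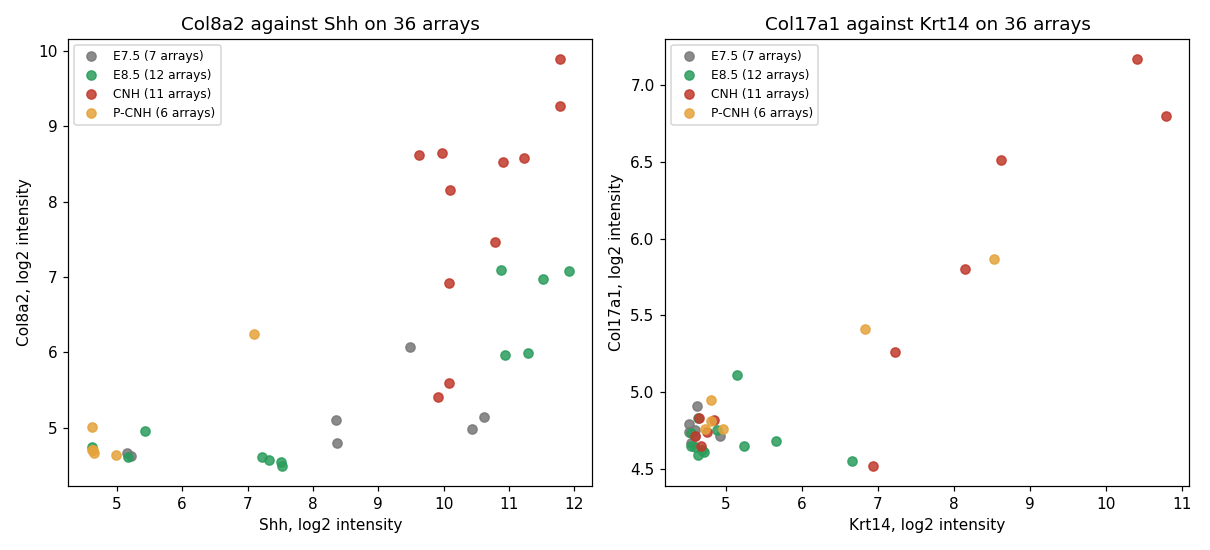
Log2 intensity of Col8a2 against Shh (left) and of Col17a1 against Krt14 (right), 1 point for each of 36 arrays coloured by stage. The arrays with the highest Col8a2 also had high Shh, while E9.5 CNH and E7.5 A replicates 1 and 2 had high Shh without detected Col8a2. Col17a1 was highest on the 2 E13.5 CNH arrays that also had the most Krt14.

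Of the genes of type IV collagen, the sheet of basement membranes, Col4a1 and Col4a2 were detected on all 36 arrays. Col4a1 and Col4a2, whose products form 1 molecule, lie head to head on mouse chromosome 8 with starts 21 bases apart. Col4a1 ran from 9.66 (E10.5 P-CNH replicate 2) through a median of 10.92 to 11.88 (E7.5 PP replicate 2), and Col4a2 from 8.27 (CLE replicate 1) through 9.53 to 11.09 (E13.5 CNH replicate 1). E10.5 P-CNH, at 9.76 and 9.66, held the lowest Col4a1. Col4a1 was called for any region (adjusted p 0.00136), while Col4a2 was not (adjusted p 0.0586), and neither was called in any of the 9 comparisons. Over 16 region values that share arrays and the batch term their Pearson r was 0.64.

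Col4a5 and Col4a6, an alternative pair of the same family, were detected on 35 and 14 arrays, and Col4a5 was called for any region (adjusted p 0.0416). Col4a4, a chain of the kidney filter, was 6.25 on E11.5 CNH replicate 1, where alone it was detected, and 0.87 higher in the late CNH. That call did not hold in 28 of 36 fits with 1 array left out, which gave 0.65 to 1.03, nor in 11 of 14 alternatives.

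The multiplexins are collagens of basement membranes and give rise to inhibitors of vessel growth. Col18a1 was detected on all arrays, from 11.42 (E11.5 P-CNH replicate 2) through 12.35 to 13.49 (CLE replicate 1), and was called for any region (adjusted p 0.00250). A second probe, also detected on every array, was lower in E10.5 CNH than in NSB by -1.17 (adjusted p 0.0229) and in the tail bud than at E8.5 by -0.88 (adjusted p 0.0114), where the first had -0.87 and -0.62 and was not called. Col15a1 was 8.00 and 7.10 in E13.5 CNH and not detected elsewhere. It was kept only through these arrays, so its call in the late CNH (1.20) carries no weight of its own, and the call was lost without E9.5 CNH replicate 1 (1.12) or without E13.5, and with offset 100, the BeadChip block or the BeadChip as a fixed term.

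The transmembrane collagens included 2 genes called in the late hinge. Col17a1, the collagen of hemidesmosomes in skin, was 6.51 and 5.80 in E12.5 CNH and 7.17 and 6.80 in E13.5 CNH, detected on 3 of these arrays and not before. The E11.5 CNH arrays, at 4.52, 4.83 and 5.26, overlapped E9.5 CNH, at 4.71 and 4.65. The late CNH difference was 1.30 (SE 0.193), of a gene kept only through the late CNH, and its call was lost with the offset of 100, and with the BeadChip as a fixed term (1.17). Of the other kept probes 1 was called (1.38) and 1 was not (0.81), and both were likewise kept only through the late CNH.

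Col23a1, a membrane collagen that is also shed, was highest in E7.5 A and E13.5 CNH. It was 8.49, 8.39 and 8.41 in E7.5 A, 8.35 and 8.12 in P and 6.84 and 7.28 in PP. At E8.5 it was 7.57 and 7.39 in RN, 7.17, 7.40 and 7.64 in NSB, 4.54, 6.53 and 5.42 in CLE, 6.29 and 6.47 in St1 and 7.00 and 7.00 in St5. RN and NSB, all above CLE and St1, exceeded them by 1.56 (SE 0.302, adjusted p 0.00196), with 1.00 within batch 1, where CLE was absent. The second probe, detected on 12 arrays, gave 1.03 there (adjusted p 0.169) with overlapping arrays and was not called. In the late CNH it ran from 6.68 to 8.97, against 6.36 and 6.40 in E9.5 CNH, a difference of 1.00 (adjusted p 0.0472). That call did not hold in 29 of 36 fits with 1 array left out, which gave 0.90 to 1.12, nor in 6 of 15 alternatives, the BeadChip block among them. By the second probe the late CNH was not called either (1.03, adjusted p 0.0837), and E13.5 CNH replicate 2 had 4.79, where the first probe had 8.97.

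Col13a1, a collagen of cell adhesions, ran from 4.60 to 6.50 with a median of 5.25, was detected on 11 arrays and was called in no comparison. Col25a1 was detected on E11.5 CNH replicate 3 only. Type VI collagen, of beaded filaments around cells, was called in no comparison of 2 groups, with Col6a1 at 4.48 to 6.80 (median 5.66), Col6a2 at 4.47 to 6.70 and Col6a3 at 4.54 to 5.83. Col6a3 was called for any region (adjusted p 0.00452), and its 3 detected arrays were both of RN (5.52 and 5.61) and E7.5 A replicate 3 (5.73). Col7a1, of anchoring fibrils, ran from 5.86 to 8.05 and was called for any region (adjusted p 0.0404).

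Several markers of other cell types were called in the late CNH, though not whole lists. Of 6 surface ectoderm markers, 3 were higher in the late CNH, Krt14 (3.81, at least 4.37-fold), Trp63 (3.30, SE 0.309, adjusted p 2.02e-07, at least 3.01-fold) and Cldn4 (2.90). Their summed log2 level was 8.15 to 8.23 in E9.5 CNH, 8.64 to 9.69 at E11.5, 10.33 to 10.40 at E12.5 and 11.73 to 11.80 at E13.5, with Cldn4 the most abundant. Krt14, Krt15, Krt5 and Trp63 were not detected in E9.5 CNH, and Krt15 was not in E13.5 CNH. Col17a1 had a Pearson r of 0.94 with Krt14, 0.90 with Trp63, 0.71 with Krt5, 0.42 with Krt15 and 0.06 with Grhl3 over 16 region values, which share arrays and the batch term and of which most lie where Col17a1 was not detected. Of 10 endothelial markers, 4 were higher, Cldn5 (1.75, at least 2.32-fold), Emcn (1.67, at least 2.04-fold), Esam (1.52) and Cdh5 (1.02, at least 1.09-fold). Their summed level was 10.89 to 11.04 in E9.5 CNH, 10.53 to 10.80 in E12.5 CNH and 12.01 to 12.02 in E13.5 CNH, where Col15a1 was detected. Egfl7 was the most abundant, and Cdh5, Cldn5, Emcn, Flt1, Pecam1, Sox18 and Tek were not detected in E9.5 CNH. Of 8 mesenchyme markers Pdgfra was higher (1.59) and Twist2 lower (-1.40). Of 7 blood markers 2 were lower, Hbb-bh1 among them (-2.85), and of 7 visceral endoderm markers limma called 0. Their part in the result was not tested.

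St5 also carried markers of other cells beside Col1a1, Col24a1 and the second Col9a1 probe. Of 10 endothelial markers, 6 were higher than in the other E8.5 regions, led by Sox18 (2.58), Tek (2.31), Cdh5 (2.11, at least 2.53-fold) and Esam (2.07). Their summed level was 12.14 to 12.27 in St5 and 10.85 to 11.51 in the other E8.5 regions, with Egfl7 the most abundant and all 10 detected in St5. Of 8 mesenchyme markers, 4 were higher, Twist2 (3.00, SE 0.288, adjusted p 1.72e-07), Prrx2 (2.20), Twist1 (1.95) and Pdgfra (1.53), with a summed level of 11.07 to 11.36 in St5 and 9.06 to 10.27 elsewhere at E8.5. Pdgfra was the most abundant and Scx was not detected. Noto (-2.21, at least 2.11-fold), Chrd (-1.91) and Sox9 (-1.06) were lower. Their part in the result was not tested.

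A few markers of other cells were also called where Col8a2, Col23a1 and Col2a1 were called in RN and NSB against CLE and St1. Of 7 blood markers, Hbb-bh1 (2.75) and Hba-x (2.17) were higher, with a summed level of 9.89 to 12.83 in RN and NSB and 7.70 to 11.95 in CLE and St1, and Hba-a1 the most abundant. Not detected were 1 of the 7 in RN, 3 in NSB, 5 in CLE and 2 in St1. Of 10 endothelial markers Sox18 was higher (1.90, at least 1.68-fold), at a summed level of 10.92 to 11.44 against 10.85 to 11.51, and Cdh5, Emcn and Pecam1 were not detected in any of these regions. Of 8 mesenchyme markers Foxc2 was higher (2.23), at 9.77 to 10.27 against 9.06 to 10.01, and Prrx1 and Scx were not detected. Of 6 surface ectoderm markers Grhl3 was lower (-1.32, at least 1.62-fold), at 8.30 to 9.84 against 8.83 to 9.06 in CLE and 9.38 or more in St1, and Krt14, Krt15, Krt5 and Trp63 were not detected. Of 7 visceral endoderm markers limma called 0. Their part in the result was not tested.

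From E7.5 to E8.5, where Col9a2 fell, 5 of 7 visceral endoderm markers were lower, led by Apob (-4.72), Ttr (-3.02), Apoa1 (-2.89) and Amn (-2.57). Their summed level was 13.84 to 14.97 in PP, 12.21 to 13.08 in P, 10.67 to 13.10 in A and 8.01 to 11.23 at E8.5, with Apoa1 the most abundant, and 5 were not detected in CLE. Of 8 mesenchyme markers, Pdgfra (-2.03), Foxc1 (-1.92) and Twist1 (-1.37) were lower, at a summed level of 11.32 to 11.76 at E7.5 and 9.06 to 11.36 at E8.5. Of 10 endothelial markers Flt1 was lower (-2.45), at 11.25 to 11.82 against 10.85 to 12.27, and of 7 blood markers Hbb-bh1 was higher (4.21, at least 3.46-fold), at 7.73 to 10.70 at E7.5 against 7.70 to 12.83 at E8.5. In E7.5 A against P, where Col2a1 was called, Shh (2.17), Sox9 (1.33) and Sox5 (1.16, at least 1.42-fold) were higher. T (-2.29), Robo4 (-2.37) and Apob (-2.14) were lower there. Robo4 was the 1 called of 10 endothelial markers, whose median difference was 0.11. Its mean at E8.5 was higher in St1 (9.54) than in St5 (8.10), unlike those of Sox18, Tek, Cdh5 and Esam. In E7.5 PP against P, which shared no batch, Rbp4 and Afp were not detected in P and were higher in PP (at least 11.1-fold and 4.14-fold before, 3.39 and 2.41 in log2 after adjustment for batch), beside the second Col9a1 probe. Their part in the result was not tested.

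Several blood and visceral endoderm markers differed between the tail bud and E8.5, with overlapping summed levels. Of 7 blood markers, 4 were higher in the tail bud, Hbb-y (6.88, SE 0.345, adjusted p 1.40e-12), Hba-x (4.14), Hba-a1 (3.60) and Hbb-bh1 (2.54), with a summed level of 11.66 to 15.80 against 7.70 to 12.83 and Hba-a1 the most abundant. Of 7 visceral endoderm markers, 3 were lower, Ttr (-3.34, at least 4.58-fold), Amn (-2.72) and Apoa1 (-1.92), with a summed level of 7.66 to 8.74 against 8.01 to 11.23 and Apoa1 the most abundant. Of 10 endothelial markers, Emcn (1.52) and Pecam1 (0.88) were higher and Sox18 lower (-0.78). Of 8 mesenchyme markers, Twist2 (2.69) and Pdgfra (1.06) were higher and Prrx2 lower (-1.06). Of 6 surface ectoderm markers Trp63 was higher (1.55, at least 1.47-fold), but it was kept only through tail bud arrays and had to differ there. In E10.5 CNH against NSB, 3 blood markers were higher, Hbb-y (8.40, at least 189-fold), Hba-x (5.57) and Hbb-bh1 (5.07), 1 of 8 mesenchyme markers was higher, Twist2 (2.89), 2 of 10 endothelial markers were higher, Emcn (3.77, at least 5.95-fold) and Cdh5 (1.74, at least 2.01-fold), and 2 visceral endoderm markers were lower, Ttr (-3.08, at least 5.66-fold) and Amn (-2.33, at least 4.19-fold). Their part in the collagen differences was not tested.

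The genes that build and export collagen gave at most 2 calls for each list and comparison. Of 18 genes of modification and folding, 1 was higher in the tail bud than at E8.5, the prolyl hydroxylase Leprel2 (1.48, SE 0.239, adjusted p 0.000104), against 7.30% of all genes, and 1 lower, Tmem38b (-0.99). The collagen sugar transferase Glt25d2 was the 1 higher in the late CNH (0.81), against 7.55% of all genes. E10.5 CNH had Leprel2 above NSB (1.31) and the chaperone Fkbp14 below (-0.92), RN and NSB had Fkbp14 higher (0.85), and St5 had the prolyl hydroxylase P4ha2 higher (1.51). Of 12 genes of export, cleavage and cross-linking, Bmp1, which cuts procollagen (1.43), and Loxl4 (0.89) were the 2 higher in the tail bud, against 7.30% of all genes, and Loxl1, a lysyl oxidase, in the late CNH (1.14, at least 1.81-fold). Adamts2, a procollagen protease, was the 1 higher in St5 (1.09, at least 1.16-fold), against 3.01% of all genes, and in RN and NSB Sec24d, which exports large cargo, was higher (1.15), against 3.20% of all genes. Pcolce2, a helper of procollagen cleavage, was called lower there (-0.74, against 0.424% of all genes), although both groups had a mean of 7.61 over their arrays.

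Of 6 receptors, Itga11, the integrin chain that binds fibrils, was higher in the tail bud (2.11), in the late CNH (0.97), in E10.5 CNH (2.04), in St5 (2.10) and at E8.5 against E7.5 (1.79). Itgb1, its partner chain, went both ways, lower at E8.5 than at E7.5 (-1.20), lower in RN and NSB (-0.70) and higher in the tail bud (1.11). Ddr1, a receptor kinase, was higher in RN and NSB (1.25). None of these 3 lists had a call in CNH against P-CNH in limma.

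Of 13 genes of collagen breakdown and its inhibitors, 5 were higher in the tail bud (7.30% of all genes) and 1 was lower (6.25%). The inhibitors Timp4 (2.11, SE 0.323), Timp3 (2.10, adjusted p 3.05e-08) and Timp2 (1.43) led, and the membrane protease Mmp15 was the lower (-1.57). Among all genes, 3.95% were higher and 4.15% lower in E10.5 CNH, 7.55% and 6.14% in the late CNH, and 3.01% and 3.04% in St5. The shares higher were 0.527% in CNH against P-CNH and 3.20% in RN and NSB. In E10.5 CNH against NSB 4 were higher, Timp4 (2.51), Timp3 (1.67) and Timp2 (1.59) among them, and Mmp15 was lower (-1.53). Timp4 (2.00) and Timp3 (1.10) were the 2 higher in CNH against P-CNH, beside Col8a1 and Col8a2. In the late CNH Timp3 (1.39), Mmp11 (0.86) and Mmp14 (0.86) were higher and Timp4 lower (-1.49). Timp3 was higher in RN and NSB (1.11) and lower in St5 (-0.83), where Mmp2, a gelatinase, was higher (1.28).

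Of 17 partners of fibrils and basement membranes, 4 were higher (7.30% of all genes) and 3 lower (6.25%) in the tail bud. Bgn (1.45), Lama1 (1.44) and Hapln1 (1.39) were the most raised. Lama5 (-1.07) was the most lowered, though the medians of the groups differed by less than its SE. Among all genes, 7.55% were higher and 6.14% lower in the late CNH, 3.95% and 4.15% in E10.5 CNH, and 3.01% and 3.04% in St5. The shares higher were 3.20% in RN and NSB, 1.38% in E7.5 A against P and 1.89% at E8.5 against E7.5. In the late CNH 4 were higher and 0 lower in limma, Dcn, which binds fibrils (1.53, at least 1.03-fold), Fmod (1.49, adjusted p 6.66e-05, at least 1.32-fold), Comp, of cartilage (1.22), and Matn4 (0.92, detected on 2 of 7 arrays). E10.5 CNH had 3 higher and 2 lower than NSB, Hapln1 (3.03, at least 4.31-fold) and Bgn (2.68) among the higher and Dcn (-2.38, at least 2.86-fold) and Lama5 (-1.25) the lower. St5 had 4 higher and 1 lower, Bgn (1.97), Hapln1 (1.84, at least 1.78-fold) and Nid1 (1.40), a basement membrane linker, among the higher and Dcn (-1.76, at least 1.5-fold) the lower. Dcn (2.09) and Comp (1.95, at least 1.55-fold) were the 2 higher in RN and NSB, Dcn (1.56, at least 1.5-fold) and Tnc (1.84, at least 1.71-fold) the 2 higher in E7.5 A than in P, and Comp (1.59) the 1 higher at E8.5 than at E7.5.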

How the data were processed

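Collagen genes were measured in 16 regions of MF1 embryos on 36 arrays. The authors deposited an average bead intensity per probe and array on a linear scale, with background and without normalisation, and a detection p-value for each. Intensities were corrected (normexp, offset 16), quantile normalised and log2 transformed by the neqc function (R 4.3.3, limma 3.58.1), in place of the lumi steps of the study. A gene was represented by its kept probe of highest mean. The limma model held region and batch, with 18 residual degrees of freedom, in place of ComBat. Tests were two-sided with Benjamini-Hochberg adjustment over 21712 probes. The script was tested on simulated data. Alternatives covered background, normalisation, batch, BeadChip, filter, probe choice, depth, the replicate number and each array left out.

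Values per array are given for 13 genes set by name where kept and for up to 5 other called members in a comparison, and from each list up to 4 called genes of largest difference. Col9a1's second probe, Col6a3 and the other genes outside this rule were chosen after their values were seen. Members and lists were chosen with earlier results of these data known. 1 blood-list gene entered the counts and is not reported here. Promoters were read with Python 3.11.15, and figures drawn with NumPy 2.4.6 and matplotlib 3.10.9.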

Additional observations from a re-analysis of the deposited data

How the results depend on the processing

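Of 35 called collagen differences, 2 changed direction under an alternative, Col2a1 (-0.04) and Col24a1 (-0.21) in the late CNH with the BeadChip as a fixed term, and neither was called there. With 1 array left out at a time, 1132 of 1245 differences kept their call and 113 did not. Counts of called collagen genes moved by more than 1.5 times as follows, and the cause was not tested. Whether the shares of all genes moved with them is not given here. With no background correction, St5 had 2 and CNH against P-CNH 1. With offset 100, the late CNH had 5, the tail bud 4, E8.5 against E7.5 0, St5 1, PP against P 1 and CNH against P-CNH 1. With cyclic loess, E8.5 against E7.5 had 0, RN and NSB 5 and CNH against P-CNH 1. With no batch term, the tail bud had 11 and E8.5 against E7.5 6. With a ComBat-type adjustment, E10.5 CNH against NSB had 12, the tail bud 12, E8.5 against E7.5 3, RN and NSB 8 and the change with stage 1. With the BeadChip as a random block (consensus correlation 0.485), the late CNH had 4, the tail bud 11 and E8.5 against E7.5 3. Late CNH and E9.5 CNH shared no BeadChip. With detected probes per array as a covariate, E8.5 against E7.5 had 2 and RN and NSB 5. Chosen after seeing the data, the BeadChip as a fixed term in place of batch (15 residual degrees of freedom) gave 4 in the late CNH and 4 in E8.5 against E7.5, leaving out both arrays with the fewest detected probes gave 5 in RN and NSB and 2 in E7.5 A against P, and E11.5 and E12.5 CNH alone gave 4.

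Within batch 1, E10.5 CNH against NSB had 10, RN and NSB 6, St5 7 and CNH against P-CNH 4. Within batch 2, where E8.5 and P-CNH were single arrays, the tail bud had 16, E8.5 against E7.5 8 and CNH against P-CNH 1. Within batch 3, where NSB and CNH were single arrays in the comparisons named last, the tail bud had 2, and E8.5 against E7.5, RN and NSB, and CNH against P-CNH had 0 in limma.

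The replicate block gave 1 in CNH against P-CNH in place of 2. Deviations of arrays with the same replicate number had a median correlation of 0.0363 over 246 pairs (-0.718 to 0.744, 81 over 0.1). Within batch 1, where the number is also the BeadChip and the regions of an age had equal numbers of pieces, the median was 0.0969 over 30 pairs (-0.128 to 0.413, 14 over 0.1). The pairs as a whole also join arrays of different ages, which cannot share embryos. Their median therefore cannot show whether regions of the same age were paired. Outside batch 1, E7.5 A and P had equal numbers of pieces in replicates 1 (9) and 2 (13), as did E9.5 CNH and P-CNH in replicate 1 (6). Pairing by number was thus not excluded, in batch 1 or outside it.

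Leaving out each array gave 4 to 13 in the late CNH, 7 to 9 in the tail bud, 3 to 7 in E10.5 CNH against NSB, 0 to 2 in E8.5 against E7.5, 2 to 6 in RN and NSB, 1 to 4 in St5, 0 to 0 in PP against P in limma, 0 to 2 in A against P, 1 to 4 in CNH against P-CNH, 18 to 23 for any region and 0 to 1 for the change with stage. The shares of all genes called in these fits are not given, so the ranges do not show a change of the collagen genes alone. A region left with 1 array is assumed to vary like the others. Leaving out NSB replicate 3 could not give the comparisons across batch 1 and the others. Signal over background, 2.28 to 15.1 per array, limits what could be detected.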
